A study of Mus musculus with 10 samples.

Results

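A group of 9 genes of the p53 pathway and the Cdk inhibitors, out of 45706 genes measured, was followed by symbol through the reprogramming of mouse fibroblasts. They were chosen by name, with earlier results of these data known. The set holds the Ink4 family genes Cdkn2a, Cdkn2b and Cdkn2c and the Cip/Kip family genes Cdkn1a and Cdkn1b. It also holds the gene of p53 (Trp53), its negative regulator Mdm2, and the p53 target genes Ccng1 and Sesn2. RNA was sequenced from 5 groups with 2 libraries each, described in the study design as biological replicates, and every library is labelled with the strain C57BL/6 x 129. Uninduced mouse embryonic fibroblasts (MEFs) carried an OKSM cassette, which encodes Oct4, Klf4, Sox2 and Myc, in the Col1a1 locus, and the transactivator M2rtTA in the Rosa26 locus. They were grown in MEF medium and were not sorted. Cells of the same genotype were taken at day 3, 6 and 9 in ESC medium with doxycycline at 1 µg/ml, which switches on the cassette, and ascorbic acid at 50 µg/ml. Day 3 was the whole culture, while day 6 and day 9 were sorted for the surface epitope SSEA1. Embryonic stem cells (ESCs) were the single line V6.5, for which no cassette is labelled, grown on irradiated feeder cells in ESC medium and not sorted. Day 3 against MEF therefore differs in induction, ascorbic acid and medium, and day 6 against day 3 in time and sorting. Day 9 against MEF differs in all of these. The induced and MEF libraries also differ in sex-linked markers, given below. Within a comparison such differences cannot be told apart here.

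Ink4 proteins bind the kinases Cdk4 and Cdk6 and block their partnership with D-type cyclins, and Cip/Kip proteins bind cyclin-Cdk complexes more widely. Both keep Rb proteins active and the cell in G1. Cdkn2a encodes a pair of unrelated proteins, p16Ink4a, an Ink4 inhibitor, and p19Arf, which inhibits Mdm2, the ligase that marks p53 for degradation. p53 is a transcription factor that activates Cdkn1a, Mdm2, Ccng1 and Sesn2 among many genes. Several of these genes, Trp53, Cdkn1a and Cdkn2a among them, are known as barriers to reprogramming, since their loss raises the yield of pluripotent colonies. Much of the control of p53 and of p27, the protein of Cdkn1b, is on protein stability, which RNA levels do not measure.

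Libraries held 29585876 to 38275024 estimated reads, and the 9 genes had from 74 reads (Cdkn2c, ESC replicate 1) to 18253 (Ccng1, day 9 replicate 2) in a library. The 12 fibroblast markers summed to 8.99% and 9.07% of the MEF mean at day 3, under 1% at day 6 and day 9, and 8.73% and 9.01% in ESC, where the feeder cells are. The sum of the 8 pluripotency markers was 289 and 297 CPM (counts per library total, scaled to the same total with TMM) at day 9 and 3810 and 3898 CPM in ESC. Xist averaged 0.766 CPM in the MEF libraries and 1010 CPM at day 3, and the Y-linked gene Ddx3y 88.5 against 0.0713 CPM. Day 6 and day 9 were like day 3, with Xist at 1304 and 1075 CPM and Ddx3y at 0.164 and 0.0987 CPM. Induced and uninduced libraries thus differ in X- and Y-linked markers of sex, although their labels are alike. In every comparison of induced cells with MEF, this cannot be told apart from induction. The ESC libraries differed from day 9 in these markers too, with Xist at 10.15 CPM and Ddx3y at 26.47 CPM. Scaling by library size alone, without TMM, moved the median log2 fold change of all tested genes from 0.08 to 0.29 for day 3 against MEF, from 0.19 to 0.48 for day 9 against MEF and from 0.10 to 0.44 for ESC against MEF. It raised the share of calls that were higher in the first group from 50.2% to 60.5%, from 54.9% to 65.5% and from 55.3% to 67.5%. In bulk RNA, fewer cells of a type and less RNA per cell cannot be told apart.

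All 9 genes passed the low-count filter. A gene was called, and is said to have risen or fallen, at an adjusted p under 0.05 by the quasi-likelihood test of edgeR (Benjamini-Hochberg over 20165 genes) together with a change of at least 2-fold. At day 3 against MEF, Cdkn2c rose and Cdkn2b fell, 2 of the 9, where 29.1% of all tested genes were called, 14.6% higher and 14.5% lower. Between day 3 and day 6 Cdkn2b and Cdkn2c fell, again 2 of the 9, against 19.5% of all genes (9.26% higher, 10.2% lower). Between day 6 and day 9 none was called by edgeR, DESeq2 or limma, where 7.87% of all genes were called by edgeR (5.18% higher, 2.68% lower). With no fold minimum, 5 had an unadjusted p under 0.05 by edgeR. The same number had an adjusted p under 0.05, beside 34.6% of all genes. Trp53 rose and Cdkn2b fell from MEF to day 9, against 43.9% of all genes (24.1% higher, 19.8% lower). ESC against day 9 gave 2 calls, Cdkn2b higher and Cdkn2c lower, against 32.9% (18.6% higher, 14.3% lower). The largest number, 4, was in ESC against MEF, where Trp53 was higher and Cdkn2b, Cdkn2c and Cdkn1a were lower, against 46.1% (25.5% higher, 20.6% lower). The share of the 9 genes called was near that of all genes in day 6 against day 3 and in ESC against MEF, and lower in the other comparisons. With 9 genes a single call moves this share widely, so no result about the set is read from it.

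Most of the 9 genes shifted by less than 2-fold. By the adjusted p of edgeR alone, with no fold minimum, 8 of the 9 passed at day 3 against MEF (64.9% of all genes), 7 at day 6 against day 3 (56.5%) and 5 at day 9 against day 6 (34.6%). The numbers were 7 at day 9 against MEF (74.9%), 9 in ESC against day 9 (69.6%) and 8 in ESC against MEF (76.6%). These comparisons share libraries and are not independent.

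**Figure D1:**
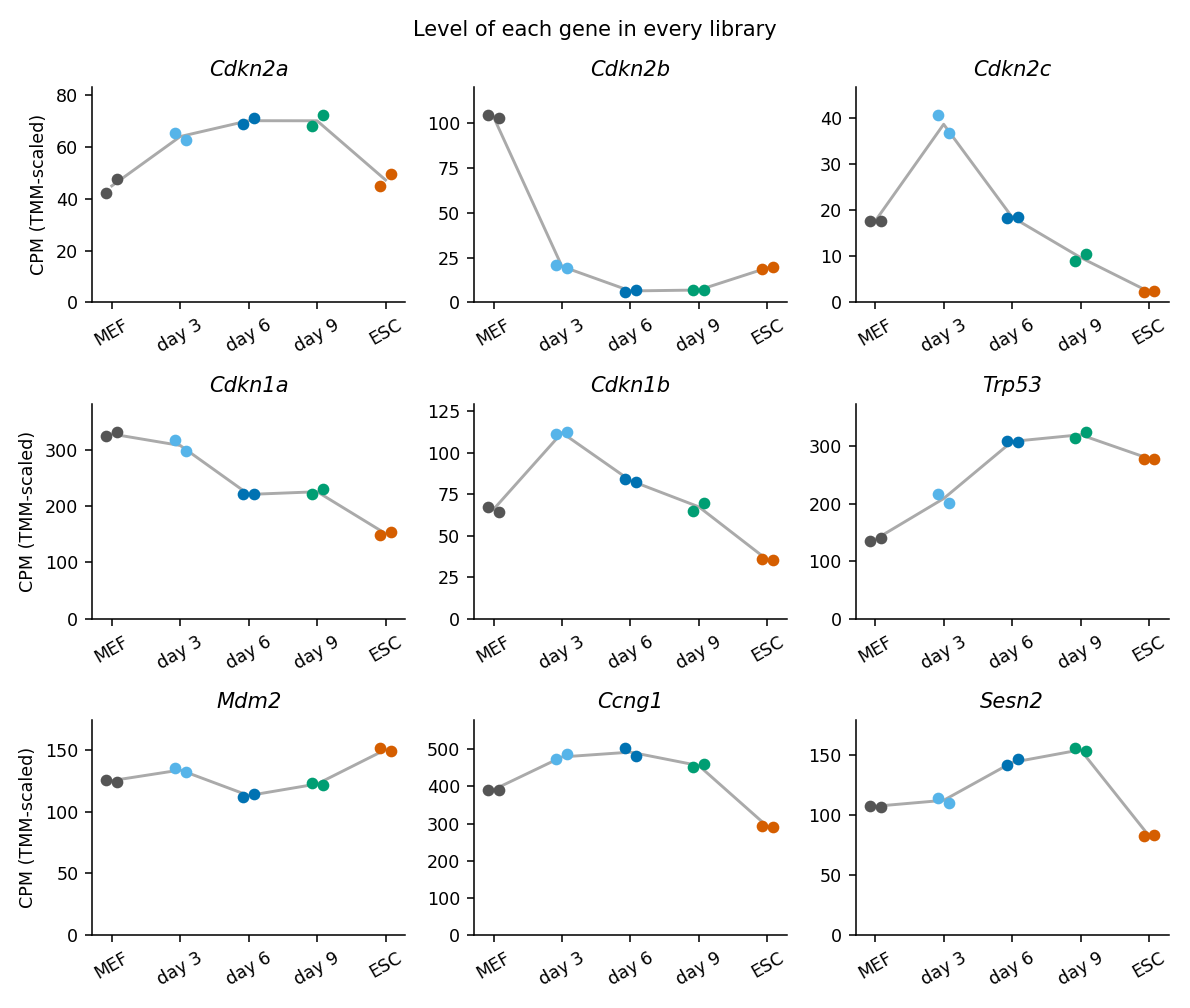
TMM-scaled CPM of each of the 9 genes (vertical axes, linear, from 0) in the MEF, day 3, day 6, day 9 and ESC libraries. Each dot is 1 library and the grey line joins group means. Cdkn2b drops from over 100 CPM in MEF to under 7 CPM at day 6 and day 9, Cdkn2c peaks at day 3, Trp53 is higher at day 6 and day 9 than in MEF, and Mdm2 stays between 112 and 152 CPM.

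The 2 products of Cdkn2a are told apart by their first exons, so the ends of these exons and the exon they share are shown. The gene lies on chromosome 4, minus strand (GRCm38, 89274471 to 89294653, protein-coding). The transcript Cdkn2a-002 starts with the Arf exon (chr4:89294334-89294653), and Cdkn2a-001 with the Ink4a exon (chr4:89281986-89282192), whose start lies 12461 bases downstream. Both splice to the same second exon of 341 bases (chr4:89276645-89276985). In the coding sequences below, from GENCODE M21, capitals mark the last 30 bases of each first exon and lower case the first 30 bases of the shared second exon.
Arf exon junction: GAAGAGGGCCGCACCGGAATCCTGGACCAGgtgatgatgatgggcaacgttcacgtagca
Ink4a exon junction: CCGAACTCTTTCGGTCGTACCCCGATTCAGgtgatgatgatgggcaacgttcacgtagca
The Arf exon contributes 190 coding bases and the Ink4a exon 126, which leave remainders of 1 and 0 when divided by 3. The same letters of the second exon are therefore read in different frames.

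Most Cdkn2a reads of the fibroblasts and of the induced cells were assigned to the Arf transcript, and most of the ESC reads to the Ink4a transcript. The Ink4a transcript took 13.6% and 12.4% of the Cdkn2a reads in MEF, 15.5% and 14.2% at day 3, 14.9% and 12.2% at day 6, and 18.8% and 16.1% at day 9. In ESC it took 58.0% and 60.4%. The 8 MEF and induced libraries lay at or below 18.8%, and both ESC libraries were far above them. Group means were 13.0% ± 0.827 (SD, n = 2) in MEF, 17.5% ± 1.87 at day 9 and 59.2% ± 1.69 in ESC. The shares are given with no test; an exact permutation test of 2 libraries against 2 cannot go below p = 0.333.

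The level of the gene as a whole hid this difference. Cdkn2a stood at 42.4 and 47.5 CPM in MEF, 65.2 and 62.8 at day 3, 69.03 and 71.2 at day 6, 68.0 and 72.2 at day 9, and 44.8 and 49.7 in ESC. The induced libraries were all above the MEF and ESC libraries, and the MEF and ESC ranges overlapped. Day 9 was 1.56-fold above MEF (log2 fold change 0.64 ± 0.06 SE, edgeR adjusted p = 2.7e-07), under the 2-fold minimum. The ESC level did not differ detectably from MEF (log2 fold change 0.07 ± 0.06 SE, edgeR adjusted p = 0.33), and the sign of that small value turned with DESeq2 and with its size factors. Split by transcript, Ink4a reads averaged 5.83 CPM in MEF, 12.2 at day 9 and 28.0 in ESC, and Arf reads 39.1, 57.9 and 19.3 CPM. From MEF to ESC the mean of the Ink4a transcript was thus 4.81-fold higher and that of the Arf transcript 2.03-fold lower, a pair of opposite differences that nearly cancel in the sum.

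**Figure D2:**
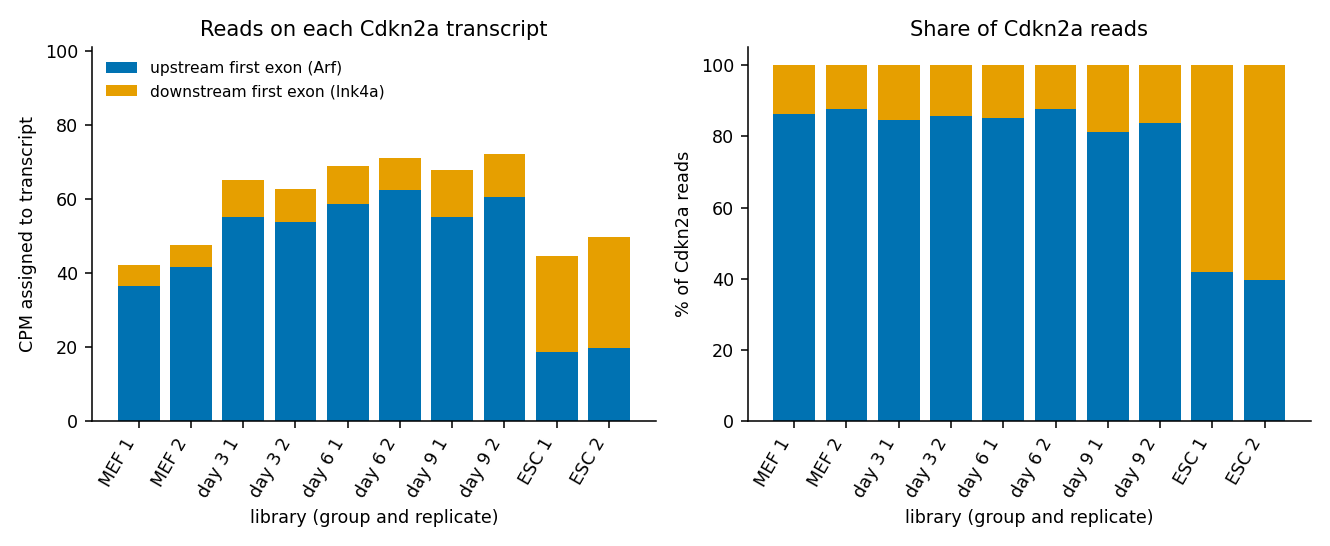
Reads assigned to the Arf transcript (blue) and the Ink4a transcript (orange) of Cdkn2a in each of the 10 libraries, as CPM (left) and as percent of the Cdkn2a reads (right). The orange part is at most 18.8% in the MEF and induced libraries and 58.0% and 60.4% in the ESC libraries, at a similar total in MEF and ESC.

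The assignment rests on few bases. Of the 50-base stretches of the transcripts, the length of the reads, 274 of 803 in the Ink4a transcript and 317 of 846 in the Arf transcript do not occur in the other. Besides the first exon, the Ink4a transcript as deposited has 70 more bases at its 3′ end, so reads there count for Ink4a whichever first exon the molecule had. Read positions were not analysed here. Shares of TPM, which correct for length, gave 13.8% for Ink4a in MEF and 60.8% in ESC. They rescale the same assigned reads and do not test the assignment. In ESC the fibroblast markers stood at 1.11% to 14.0% of their MEF levels (median 8.17%) and Cdkn2a at 105.1% of its own. The feeder cells were irradiated and were not measured on their own, and the part of their RNA in the Cdkn2a reads of the ESC libraries was not tested.

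Cdkn2b, which encodes the Ink4 inhibitor p15Ink4b, had far less RNA at day 3 than in MEF. Its start lies 16386 bases from the start of the Arf exon on chromosome 4 (GRCm38, 89306299 to 89311039, minus strand). It stood at 104 and 103 CPM in MEF, 20.95 and 19.1 at day 3, 5.76 and 6.96 at day 6, 6.78 and 6.97 at day 9, and 18.8 and 19.7 in ESC. No library of day 3 or later came near the MEF level, and the ranges of day 6 and day 9 overlapped. Cdkn2b fell 5.16-fold from MEF to day 3 (log2 fold change -2.37 ± 0.06 SE, edgeR adjusted p = 1.7e-13) and a further 3.16-fold to day 6 (-1.66 ± 0.08, adjusted p = 5.4e-10). At day 9 it was 15.0-fold below MEF (-3.91 ± 0.07, edgeR adjusted p = 1.9e-15), while the neighbouring Cdkn2a gene was higher than in MEF.

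Cdkn2b was 2.80-fold higher in ESC than at day 9 (log2 fold change 1.48 ± 0.08 SE, edgeR adjusted p = 9.1e-10). All 12 fibroblast markers were also higher in ESC than at day 9 in their group means, 11 of them past both thresholds. Cdkn2b in ESC was at 18.6% of its MEF level, and the 12 markers at 1.11% to 14.0% of theirs; at day 9 the values were 6.64% for Cdkn2b and 0% to 2.87% for the markers, with Lum at 0 reads. The part of this fibroblast RNA in the higher Cdkn2b level was not tested.

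Cdkn2c encodes the Ink4 inhibitor p18Ink4c (chromosome 4, 109660876 to 109667189, minus strand). It was the 1 gene of the 9 that rose at day 3. Its libraries read 17.7 and 17.7 CPM in MEF, 40.6 and 36.7 at day 3, 18.4 and 18.6 at day 6, 9.00 and 10.46 at day 9, and 2.18 and 2.43 in ESC. The day 3 libraries were the highest, MEF and day 6 lay next to each other, and the ESC libraries were the lowest. Cdkn2c rose 2.19-fold at day 3 (log2 fold change 1.13 ± 0.07 SE, edgeR adjusted p = 5.4e-09) and fell 2.09-fold by day 6 (-1.06 ± 0.07, adjusted p = 1.4e-08). The second call was lost with library-size scaling (-0.99), limma on log2(TPM + 1) (-0.95) and without day 3 replicate 1 (-0.997), each just under 2-fold.

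Cdkn2c was lower still at the later stages. Day 9 was 1.89-fold below day 6 (log2 fold change -0.92 ± 0.08 SE, edgeR adjusted p = 9.4e-07), under the fold minimum in the fit to all libraries and past it without day 9 replicate 2 (-1.04). ESC was 4.23-fold below day 9 (-2.08 ± 0.12, edgeR adjusted p = 1.1e-09) and 7.63-fold below MEF (-2.93 ± 0.11, adjusted p = 5.0e-12). With limma on log2(TPM + 1) these differences were smaller, -1.05 against day 9 and -1.70 against MEF. The ESC values rest on 74 and 91 reads. They were at 13.1% of MEF, within the 1.11% to 14.0% of the fibroblast markers, and the part of fibroblast RNA in this remaining level was not tested. Cdkn2c has a pair of annotated starts 1817 bases apart. Cdkn2c-001, of 2471 bases, held the larger share of the reads in every library, 79.4% and 81.7% in MEF against 61.1% and 68.6% in ESC. By TPM, which corrects for length, the shorter Cdkn2c-002 (1106 bases) held more in ESC, 62.25% and 54.33%, and less in all other libraries.

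The remaining Cdk inhibitor genes, Cdkn1c (p57) and Cdkn2d (p19Ink4d), both fell from MEF to day 9, where 43.9% of all genes were called and 19.8% were lower. Cdkn2d read 30.84 and 29.91 CPM in MEF and 12.25 and 12.73 at day 9, a smaller fall than that of Cdkn1c. Cdkn1c, an imprinted Cip/Kip gene, read 128 and 126 CPM in MEF, 46.1 and 45.2 at day 3, and 5.01 and 5.99 at day 9. It was 22.8-fold lower at day 9 (edgeR adjusted p = 3.4e-16), and 2.70-fold higher in ESC than at day 9 (edgeR adjusted p = 2.3e-09). In ESC it read 15.4 and 14.6 CPM. The fibroblast markers were higher in ESC than at day 9 too, and their part in this difference was not tested.

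Cdkn1a encodes p21, the Cdk inhibitor through which p53 arrests the cycle (chromosome 17, 29090976 to 29100727, plus strand). Its RNA was lower at day 6, day 9 and in ESC than in MEF, past 2-fold in ESC alone. It stood at 324 and 332 CPM in MEF, 317 and 299 at day 3, 221 and 221 at day 6, 221 and 230.0 at day 9, and 149 and 153 in ESC. The day 3 libraries lay just below MEF, both sorted stages lay together, and ESC was lowest. The day 3 value differed from MEF by -0.09 ± 0.04 SE on the log2 scale (edgeR adjusted p = 0.036), and its sign turned with library-size scaling (0.11). Cdkn1a at day 9 was 1.46-fold below MEF (-0.54 ± 0.04, edgeR adjusted p = 4.4e-09), under the fold minimum. In ESC it had fallen 2.17-fold against MEF (-1.12 ± 0.04, edgeR adjusted p = 1.3e-12), a call that was lost with library-size scaling (-0.78). Its ESC level, 46.1% of MEF, was above the percentage of every fibroblast marker.

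Cdkn1b encodes p27, the Cip/Kip inhibitor tied to quiescence (chromosome 6, 134920401 to 134925513, plus strand). Its mean was highest at day 3 and lowest in ESC, with no step past 2-fold. It read 67.2 and 64.5 CPM in MEF, 111 and 113 at day 3, 84.1 and 82.2 at day 6, 64.9 and 69.9 at day 9, and 35.9 and 35.1 in ESC. Day 9 and MEF overlapped, and day 3 and ESC were the high and low ends. Day 3 was 1.70-fold above MEF (log2 fold change 0.77 ± 0.04 SE, edgeR adjusted p = 9.0e-10), and ESC was 1.90-fold below day 9 (-0.93 ± 0.05, adjusted p = 2.7e-10). Day 3 was thus the stage with the highest mean of both Cdkn1b and Cdkn2c.

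**Figure D3:**
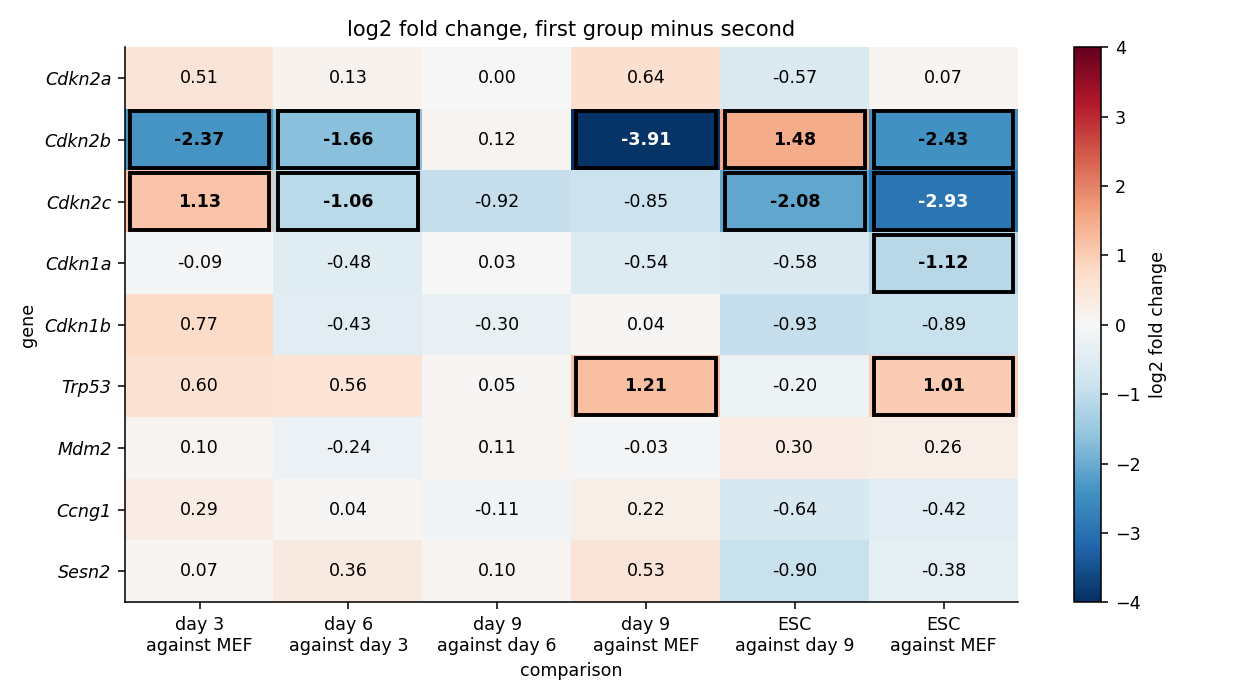
log2 fold change (first group minus second, colour and number) of the 9 genes (rows) in the 6 comparisons (columns). Black frames mark the 12 values past an adjusted p of 0.05 and a 2-fold change by edgeR: 5 are in the Cdkn2b row, 4 in the Cdkn2c row, 2 in the Trp53 row, 1 in the Cdkn1a row and none in the others.

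Trp53 RNA was higher in the induced cells than in the fibroblasts, and stayed so in ESC. The gene lies on chromosome 11 (69580359 to 69591873, plus strand). It read 135 and 141 CPM in MEF, 217 and 200.3 at day 3, 309 and 307 at day 6, 314 and 325 at day 9, and 278 and 278 in ESC. All later libraries were above MEF, and day 6 and day 9 differed little. Day 3 was 1.52-fold above MEF (log2 fold change 0.60 ± 0.04 SE, edgeR adjusted p = 7.8e-09) and day 6 was 1.48-fold above day 3 (0.56 ± 0.04, adjusted p = 1.8e-08), both under the fold minimum. Over the whole course Trp53 rose 2.32-fold by day 9 (1.21 ± 0.04, edgeR adjusted p = 1.3e-12).

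In ESC, Trp53 was 2.02-fold above MEF (log2 fold change 1.01 ± 0.04 SE, edgeR adjusted p = 1.0e-11). This sits at the fold minimum: it was 0.94 with DESeq2 and with its size factors in edgeR, 0.98 without MEF replicate 1 and 1.00 without either day 3 or either day 6 replicate, each below 2-fold. The processed pseudogene Trp53-ps had 0 reads in all 10 libraries, and 3.88% of the 50-base stretches of Trp53 transcripts occur in other genes. The near-identical transcripts Trp53-001 and Trp53-201, of 1772 and 1771 bases, are not reported separately.

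Of 12 genes for kinases, ligases and other proteins that act on p53, 2 were called at day 3 against MEF, both higher, where 29.1% of all genes were called and 14.6% were higher. At day 9 against MEF 6 were called, each of them higher, where 43.9% of all genes were called and 24.1% were higher (median log2 fold change 0.98, beside 0.19 for all tested genes). ESC against MEF also gave 6 calls, each of them higher, where 46.1% of all genes were called and 25.5% were higher (median 1.01, beside 0.10). For calls in either direction, the counts at day 9 and in ESC were near the shares of all genes. The genes that were higher, 6 of the 12 in each, were a larger share than the 24.1% and 25.5% of all genes. No set test was run. The largest rise at day 3 and at day 9 was that of Chek1, a checkpoint kinase, from 12.9 and 14.8 CPM in MEF to 35.3 and 35.6 at day 3 and 55.9 and 62.2 at day 9 (4.25-fold, edgeR adjusted p = 1.8e-12). In ESC against day 9, 2 were called and both fell, where 14.3% of all genes were lower, Hipk2, a kinase of p53, by the most (2.52-fold lower, edgeR adjusted p = 4.2e-09). Among the p53 paralogs, Trp73 had 1 read in the MEF libraries together and 509 at day 9. The ratio of its shares of all reads was 527, with an exact 95% interval of 94.1 to 20800.0 that covers counting error only. Trp63 stayed under 1 CPM in the group means of MEF, day 3, day 9 and ESC.

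Mdm2, the ligase that degrades p53 and is itself a p53 target, had the smallest spread of group means among the 9 genes relative to their level (chromosome 10, 117688875 to 117710758, minus strand). It read 126 and 124 CPM in MEF, 135 and 132 at day 3, 112 and 114 at day 6, 123 and 122 at day 9, and 152 and 149 in ESC. The ESC libraries were the highest and the day 6 libraries the lowest. Day 9 did not differ detectably from MEF (log2 fold change -0.03 ± 0.03 SE, edgeR adjusted p = 0.40), with a sign that turned under library-size scaling (0.26). ESC was 1.20-fold above MEF (0.26 ± 0.03, edgeR adjusted p = 3.8e-06).

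Of the 9 annotated Mdm2 transcripts, Mdm2-003 took 60.8% to 71.9% of the reads in every library. Its start lies 736 bases downstream of that of Mdm2-001, and the annotation classes it as subject to nonsense-mediated decay. Its share was 70.0% and 66.0% in MEF, 60.8% and 71.1% at day 3, 62.6% and 63.6% at day 6, 68.0% and 71.7% at day 9, and 67.8% and 71.9% in ESC. The day 6 libraries lay below those of MEF, day 9 and ESC, whose ranges overlapped, and the day 3 libraries lay far apart. These shares are given with no test. The protein-coding Mdm2 transcripts summed to 3.19 TPM (a scale that corrects for transcript length) in MEF, of 35.6 TPM for the gene, and to 2.20 of 32.1 at day 9 and 3.23 of 46.98 in ESC. Mdm2 is known to have a constitutive promoter and a p53-responsive promoter further downstream, in the first intron; whether the start of Mdm2-003 is the latter was not tested.

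Ccng1 encodes cyclin G1, a p53 target that binds Mdm2 and the phosphatase PP2A (chromosome 11, 40748552 to 40755311, minus strand). It had the highest read rate of the 9 genes. It read 391 and 392 CPM in MEF, 473 and 486 at day 3, 503 and 482 at day 6, 451 and 461 at day 9, and 294 and 291 in ESC. The induced libraries were above MEF and the ESC libraries below it. Day 3 was 1.23-fold above MEF (log2 fold change 0.29 ± 0.03 SE, edgeR adjusted p = 1.5e-06), and ESC was 1.56-fold below day 9 (-0.64 ± 0.03, adjusted p = 3.0e-10).

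Sesn2 encodes sestrin 2, a stress-induced inhibitor of mTORC1 signalling (chromosome 4, 132492032 to 132510501, minus strand). It read 108 and 107 CPM in MEF, 114 and 110.0 at day 3, 141 and 146 at day 6, 156 and 153 at day 9, and 82.1 and 83.0 in ESC. Day 9 was highest and ESC lowest. Day 9 was 1.44-fold above MEF (log2 fold change 0.53 ± 0.04 SE, edgeR adjusted p = 4.2e-09) and ESC was 1.87-fold below day 9 (-0.90 ± 0.04, adjusted p = 1.8e-11). The 4 p53 targets among the 9 genes thus did not move as one: at day 9 against MEF Sesn2 and Ccng1 were higher, Cdkn1a was lower and Mdm2 did not differ detectably, none past 2-fold. With library-size scaling these signs held for Sesn2, Ccng1 and Cdkn1a.

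A list of 24 further p53 targets was also mixed. At day 3 against MEF 7 rose, 3 fell and 14 were not called (median log2 fold change 0.36, beside 0.08 for all tested genes), where 29.1% of all genes were called. At day 9 against MEF 8 rose and 2 fell (median 0.47, beside 0.19), 10 of 24 where 43.9% of all genes were called, a share near that background. The largest rise was that of Perp, which encodes a membrane protein of desmosomes and apoptosis. It read 2.33 and 2.26 CPM in MEF, 104.6 and 105.0 at day 3, and 231 and 233 at day 9, 101.2-fold above MEF (edgeR adjusted p = 1.6e-18). Plk2, a polo-like kinase, fell most, from 313 and 307 CPM in MEF to 68.95 and 61.9 at day 3 (4.73-fold lower, edgeR adjusted p = 8.3e-15).

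In ESC against day 9, 2 of the 24 targets rose and 6 fell, with a median of -0.71 beside 0.01 for all tested genes. These 8 of 24 are a share near the 32.9% of all genes that were called. Perp fell 11.7-fold (edgeR adjusted p = 6.1e-17), and Gadd45a, a growth arrest gene, rose 2.46-fold (adjusted p = 1.1e-11). Of the 4 targets among the 9 genes, Cdkn1a, Ccng1 and Sesn2 were also lower in ESC than at day 9, each by less than 2-fold, while Mdm2 was 1.23-fold higher. The ESC line, its feeder cells, its genotype and the difference in sex-linked markers cannot be told apart from pluripotency in this comparison.

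**Figure D4:**
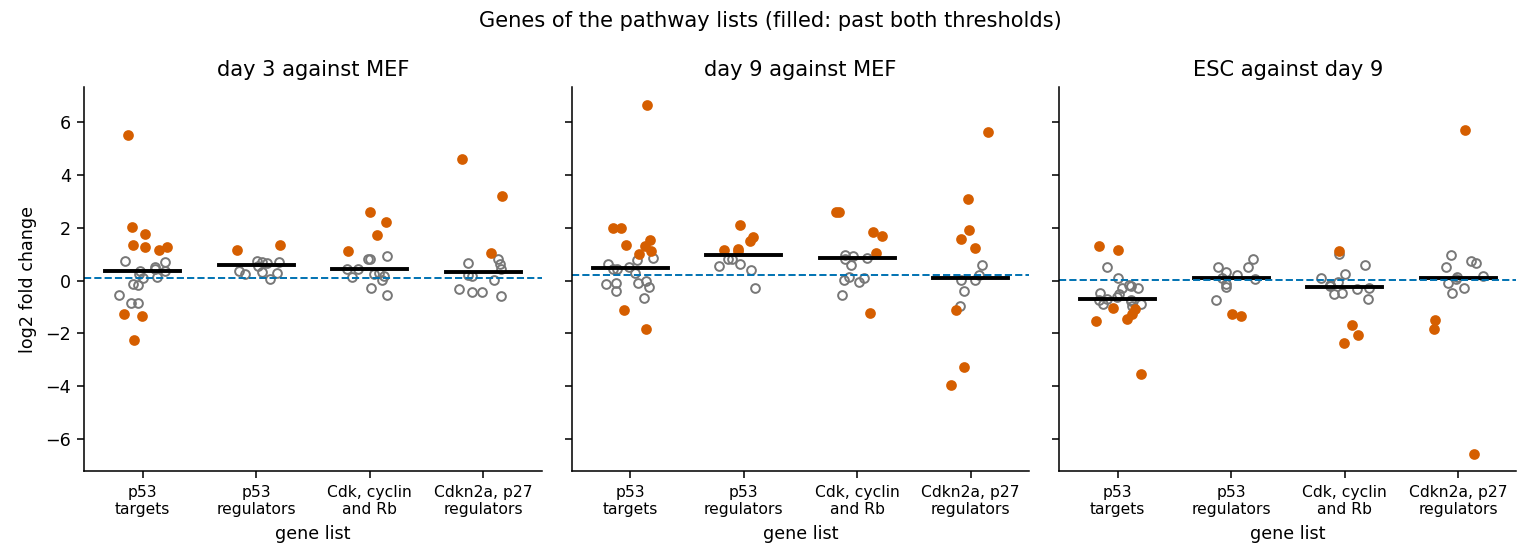
log2 fold change of single genes (dots) of 4 lists in 3 comparisons: 24 p53 targets, 12 p53 regulators, 16 Cdk, cyclin and Rb genes, and 14 regulators of Cdkn2a and of p27. Filled dots passed an adjusted p of 0.05 and a 2-fold change by edgeR, black bars are list medians, and the dashed line is the median of all tested genes. The p53 targets lie mostly above the dashed line at day 9 against MEF (median 0.47) and below it in ESC against day 9 (median -0.71).

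Because 4 of the 9 genes are p53 targets, RefSeq promoter windows (GRCm38.p6, 250 bases before to 50 after each start, 300 in all) were searched for the p53 response element. The search took both decamers with no spacer, kept the fixed C and G of each core, and allowed 1 mismatch at the other positions; the element reads alike on both strands. All 9 genes matched, with 12 windows. The element was found in 2 of the 12 windows and in 22 of all 32851 windows (0.067%). Capitals mark the element, and each sequence is in the direction of transcription, 60 bases on chromosome 17, plus strand (chr17:29090908-29090967) for Cdkn1a and on chromosome 11, minus strand (chr11:40755442-40755501) for Ccng1.
Cdkn1a p53 site: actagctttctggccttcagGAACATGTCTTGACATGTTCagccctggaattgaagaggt
Ccng1 p53 site: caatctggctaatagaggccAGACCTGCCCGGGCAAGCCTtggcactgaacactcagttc
The Cdkn1a element lies 51 to 32 bases before the upstream start, that of Cdkn1a-003, and 2841 bases before the start of Cdkn1a-001. The Ccng1 element lies 195 to 176 bases before its start. These are matches of letters and not measured binding. The genes that carry them differed: at day 9 against MEF Ccng1 was 1.17-fold higher and Cdkn1a 1.46-fold lower. Cdkn1a-003, next to the element, held 4.88% to 7.33% of the Cdkn1a reads in every library, and Cdkn1a-001 at least 92.03%. Among windows of the further p53 targets, 1 of 24 held the element, that of Rps27l. No match in the other 10 windows says only that these letters are not there.

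The windows of the first exons of Cdkn2a differed in composition. The Arf window was 77.0% G and C with 45 CpG pairs, and the Ink4a window 60.3% with 12, beside medians of 52.7% and 7 over all windows. The transcript with the CpG-richer window was the main one in MEF and the induced cells.

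Of 16 genes for the Cdks and cyclins that these inhibitors act on and for the Rb proteins downstream, 4 were called at day 3 against MEF, each of them higher, where 29.1% of all genes were called and 14.6% were higher. At day 9 against MEF 5 rose and 1 fell, where 43.9% of all genes were called. For calls in either direction, neither count was above the share of all genes. The genes that were higher were 4 of the 16 at day 3, a larger share than the 14.6% of all genes, and 5 at day 9, near the 24.1%. With so few genes these counts are not read as a result about the list. No set test was run. Rb1, the retinoblastoma gene, read 19.5 and 15.9 CPM in MEF, 104 and 110.4 at day 3, 107 and 108 at day 9, and 21.01 and 21.02 in ESC. It rose 6.10-fold at day 3 (edgeR adjusted p = 2.7e-13) and was 5.12-fold lower in ESC than at day 9 (adjusted p = 4.6e-13), so its high level was seen in the induced libraries and not in either end group. Its relative Rbl2 (p130) was the 1 gene that fell at day 9 (2.36-fold, edgeR adjusted p = 1.7e-10). Ccnd3, a D-type cyclin, was the 1 that rose in ESC against day 9 (2.18-fold, edgeR adjusted p = 1.3e-12), where 3 fell and 32.9% of all genes were called.

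Of 14 regulators of the Cdkn2a locus and of p27, 3 were called at day 3 against MEF, each of them higher, where 29.1% of all genes were called and 14.6% were higher. At day 9 against MEF 5 rose and 3 fell, where 43.9% of all genes were called. Cbx7, a Polycomb protein known to repress Ink4a and Arf, rose most, from 1.96 and 2.01 CPM in MEF to 50.4 and 46.4 at day 3 and 98.6 and 97.7 at day 9 (49.3-fold, edgeR adjusted p = 8.5e-17). Ets1, an activator of Ink4a, fell most, from 101 and 106 CPM to 6.85 and 6.44 at day 9 (15.6-fold, edgeR adjusted p = 8.4e-16). In ESC against day 9, of the T-box repressors of the locus, Tbx3 rose 52.4-fold (edgeR adjusted p = 1.2e-14) and Tbx2 fell 94.5-fold (adjusted p = 9.3e-17). Whether any of these bears on the Cdkn2a levels was not tested.

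**Figure D5:**
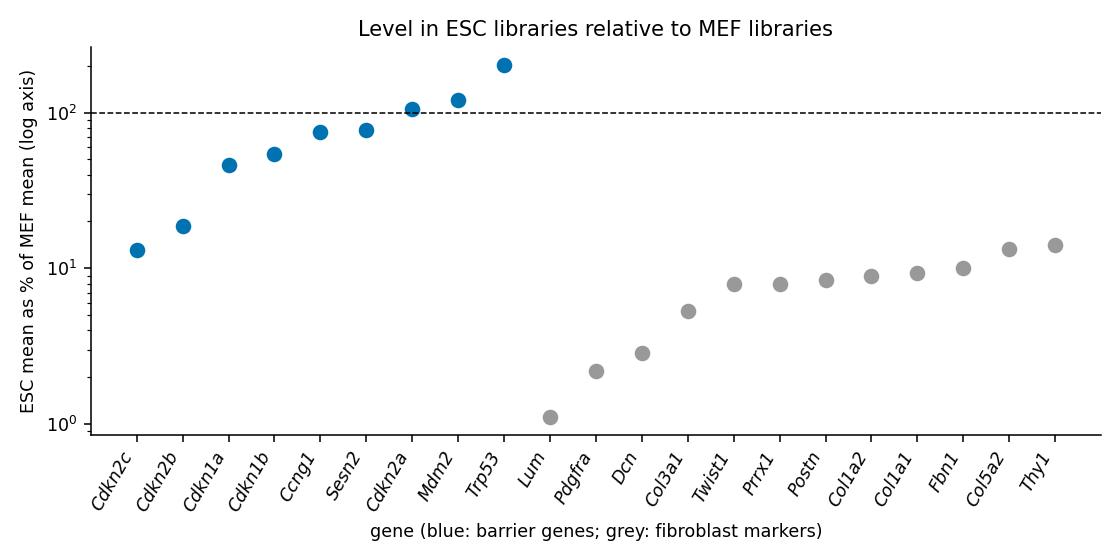
Mean CPM in ESC as percent of mean CPM in MEF (log axis) for the 9 genes (blue) and the 12 fibroblast markers (grey), and the dashed line at 100%. Cdkn2c (13.1%) lies within the range of the markers (1.11% to 14.0%), Cdkn2b (18.6%) just above it, and the other 7 genes between 46.1% (Cdkn1a) and 202% (Trp53).

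In ESC against MEF, 1 of the 9 genes had risen (Trp53) and 3 had fallen (Cdkn2b, Cdkn2c, Cdkn1a), where 46.1% of all genes were called (25.5% higher, 20.6% lower). The Trp53 call was lost with DESeq2 and the Cdkn1a call with library-size scaling. Cdkn2b was 5.38-fold lower (log2 fold change -2.43 ± 0.06 SE, edgeR adjusted p = 7.4e-14). Ccng1 and Sesn2 were 1.34-fold and 1.30-fold lower. With library-size scaling these differences were only -0.078 and -0.036 on the log2 scale.

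On the TPM scale, which allows genes to be compared, Cdkn1a led in MEF at 105.2 ± 0.778 TPM (SD, n = 2), followed by Ccng1 at 67.6 ± 0.177 and Trp53 at 61.5 ± 2.11. Cdkn2b came next at 41.5 ± 1.08, above Mdm2 (35.6 ± 1.37) and Cdkn2a (32.1 ± 2.11), whose difference is about the sum of their SDs, and the lowest was Cdkn2c at 4.77 ± 0.166. At day 9 the order had changed: Trp53 led at 132 ± 1.70 TPM, followed by Ccng1 (73.3 ± 0.495) and Cdkn1a (68.3 ± 2.65). Cdkn2c (2.69 ± 0.288) and Cdkn2b (2.62 ± 0.0339) were lowest and did not differ beyond their spread. In ESC Trp53 (130.0 ± 1.70) led again and Cdkn2c (0.782 ± 0.00785) was lowest.

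This order depends in part on transcripts that are not classed as protein-coding, some of them short. Mdm2-003, of 2769 bases and classed as subject to nonsense-mediated decay, held 46.8% and 40.4% of the Mdm2 TPM in MEF. Trp53-004, of 403 bases, held 5.40% and 5.86% of the Trp53 reads in MEF but 36.4% and 38.5% of its TPM. Over protein-coding transcripts alone, a setting chosen after seeing the data, Trp53 in MEF was at 38.1 ± 0.332 TPM (SD, n = 2), below Cdkn2b, and Mdm2 was the lowest of the 9 genes in MEF, at day 3 and at day 9. By that measure Trp53 still led at day 9 (81.7 ± 1.28) and in ESC (80.8 ± 1.06), and Cdkn1a (68.3 and 49.9) came before Ccng1 (58.4 and 41.1) in both. Cdkn1a led in MEF by either measure.

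Genes with the most similar profiles were found by Pearson's r of log2 CPM over the 10 libraries among 9925 protein-coding genes. For Cdkn2a they were Coq2 (0.99), Tcf7l1 (0.99) and Ppm1k (0.98), for Cdkn2b Selm, Arfgap3 and Pcyox1, and for Cdkn2c Lrrcc1, Lima1 and Ppic. The 3 nearest to Cdkn1a were Crip1, Smad1 and Clic1, and to Trp53 Srsf3, Adsl and Sart3. Mdm2 was nearest to Schip1 (0.98), Lyz2 and Ccs, and Sesn2 to Ephb6, Fndc4 and Cldn11. Ccng1 was nearest to Peli2, Ddah1 and Klf4, of which the last is also encoded by the cassette. The 10 libraries form 5 stages, so these values describe shared stage profiles; with Spearman's rho or without the ESC libraries, at most 2 of the 3 genes of any list stayed among the nearest.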

How the data were processed

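The authors deposited 1 salmon table per library, with estimated counts and TPM for 109617 transcripts; the submitters' processing notes name Salmon 0.8.2 and mm10, and the strand setting is not given in the sources used here. Per the labels, libraries were stranded poly(A) libraries read as single 50 nt reads, with 1 batch label for all. Estimated counts were deposited without normalization, and the TPM that the authors deposited is per effective length, which was the same in all libraries. Gene symbols come from the deposited transcript names.

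Estimated counts were summed per gene, rounded, filtered with filterByExpr (minimum count 10, minimum total 15), scaled with TMM and tested by quasi-likelihood in edgeR 4.0.16 under R 4.3.3 on all 10 libraries, 20165 genes, in 6 comparisons. Calls needed an adjusted p under 0.05 and a log2 fold change of at least 1 in size. On simulated counts with 200 changed genes among 20165, for day 3 with MEF, 85% were recovered and 0 unchanged genes called. In the data 5873 genes were called in that comparison, and recovery with that many changed genes was not tested. The common biological coefficient of variation was 3.75%. Replicate pairs differed by more than sampling noise (chi-square per degree of freedom 2.91 to 5.42), which does not show that they are independent biological samples. Each library counted as 1 sample because the study design describes biological replicates. The p values rest on the spread between libraries of a group, and those of ESC come from a single line. Transcripts, positions and overlaps come from GENCODE M21 (GRCm38), promoters from RefSeq (GRCm38.p6). On the GENCODE M21 annotation Cdkn1a overlaps AC167363.2 on the opposite strand over 1046 bases, and Sesn2 overlaps Gm12981 on the same strand over 6089 bases. Stretches of 50 bases shared with transcripts of other genes made up 2.14% of Cdkn1a, 3.88% of Trp53, 1.21% of Mdm2 and 0% of the other 6. Intervals cover counting error only.

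The 9 genes and all lists were chosen with earlier results of these data known. The rule for named genes took all 9, the called gene of each list with the largest rise and the largest fall in day 3 with MEF, day 9 with MEF and ESC with day 9, and the 3 protein-coding genes of at least 10 CPM most like each of the 9; those of Cdkn1b are not reported here. Cdkn2d and Rps27l were named after their values were seen. Alternatives were DESeq2 1.42.0 and its size factors, library-size scaling, no filter or a 10 CPM filter, fits to the 2 groups compared, no fold minimum, limma 3.58.1 on log2 TPM with a pseudocount of 1 or 0.1, a replicate block, leaving out each replicate, and, added after seeing the data, a fit without ESC and TPM over protein-coding transcripts alone.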

Additional observations from a re-analysis of the deposited data

How the results depend on the processing

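No fold change of the 9 genes that was called reversed its direction in any of the 21 alternatives. Leaving out a replicate kept 533 of 540 gene-by-comparison results on the same side of the thresholds, and the other settings with the 2-fold minimum kept 517 of 522. The count of genes higher in ESC with MEF went from 1 to 0 with DESeq2, with its size factors in edgeR, and over a range of 0 to 1 when leaving out a replicate (0 without MEF replicate 1 and without any one day 3 or day 6 replicate), because Trp53 sits at the 2-fold minimum. The count lower in day 6 with day 3 went from 2 to 1 with library-size scaling and with limma on log2(TPM + 1), and ranged from 1 to 2 leaving out a replicate, through Cdkn2c. The count lower in day 9 with day 6 ranged from 0 to 1 leaving out a replicate, through Cdkn2c without day 9 replicate 2. Cdkn1a in ESC with MEF was no longer called with library-size scaling (-0.78). The called values of the 9 genes that moved by over 1.5 times were those of Cdkn2c with limma on log2(TPM + 1), -1.05 in ESC with day 9 and -1.70 in ESC with MEF. Without the 2-fold minimum the counts higher and lower were 6 and 2 (day 3 against MEF), 2 and 5 (day 6 against day 3), 2 and 3 (day 9 against day 6), 4 and 3 (day 9 against MEF), 2 and 7 (ESC against day 9), and 2 and 6 (ESC against MEF).

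The labels give the groups the same replicate numbers but no shared embryo or day. Deviations of same-numbered libraries correlated at -0.02 to 0.022 over 10 pairs of groups, so the numbers were not taken to pair the samples. With a replicate block all 54 results of the 9 genes kept their call, with Trp53 at day 9 against MEF among them, and the count of genes higher in ESC with MEF stayed at 1.

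Over all tested genes, edgeR called 5873, 3926, 1586, 8851, 6637 and 9290 in the order of comparisons above. The 10 CPM filter, which tested 11712 genes, called 3022, 2014, 775, 4759, 2966 and 5067, and limma on log2(TPM + 1) called 2663, 1401, 382, 4625, 2768 and 5055. With limma on log2(TPM + 0.1) day 9 against day 6 gave 991. Counts of the gene lists moved by more than 1.5 times in 159 of 2232 cases. The Ink4a share of Cdkn2a moved by less than the SD between replicates with TPM in place of reads. Effective lengths were the same in all libraries, so TPM shares are a fixed rescaling of the read shares and do not test the assignment. The restriction to protein-coding transcripts changes nothing, since both Cdkn2a transcripts are. With 2 libraries per group the spread is shared over all groups, and where a replicate was left out the lone library was assumed to vary like the others.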
